A study of Rattus norvegicus with 24 samples.

Results

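Ascorbic acid alone was compared with no treatment in rat neurospheres (NSps), free-floating clusters that neural progenitor cells (NPCs) form in suspension. The comparison used 7 of the 24 samples of the series, chosen by treatment label and not by any measured value. Group A had 4 samples (MO9 to MO12) that received 200 µM ascorbic acid and 0 Gy. The untreated group C had 4 samples at 0 Gy, of which MO1, MO3 and MO4 were used. MO2, which the study removed as an outlier, was left out. The NPCs of all groups came from brains of Sprague Dawley rat fetuses at embryonic day 15 and grew in medium with epidermal and fibroblast growth factors. Ascorbic acid was added the day before and on the day when other groups were irradiated (days 2 and 3 of culture). Of these, the 4 samples with 1 Gy alone (CGy) and the 4 samples with ascorbic acid and 1 Gy (AGy) served as a second comparison of the same agent that shares no sample with A and C. The 8 samples with 5 µM Noggin, which binds bone morphogenetic proteins outside the cell, given at 0 Gy (N) or with 1 Gy (NGy), are named only where their values bear on A. RNA was taken from whole NSps, so fewer cells of a type and less RNA per cell cannot be told apart. The sources do not state whether the samples of a group came from separate cultures or litters, so p-values measure the spread between these samples only.

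Ascorbic acid (vitamin C) is a reducing agent and keeps the iron of 2-oxoglutarate-dependent dioxygenases in its active state. These enzymes include the prolyl hydroxylases of collagen and the prolyl hydroxylases that mark the hypoxia-inducible factors for degradation. They also include the TET and JmjC enzymes, which oxidize methyl groups on DNA and histones. Neural cells take the vitamin up through a sodium-dependent transporter. Genes carry only Ensembl identifiers in the tables and no name is given beside them, so 0 of 16478 genes could be assigned to any of these enzymes, to their targets or to a cell type, and the labelled cell type could not be checked against its markers. The genes are therefore described by how many changed, in which direction and in which samples, and 4 are given by identifier.

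Values are in TPM, a length-scaled measure of the share of all transcripts that a gene makes up. Genes of a sample summed to 617969 to 627580 TPM in C and to 615330 to 622464 TPM in A. Between 9478 and 9520 genes reached 1 TPM in C and between 9485 and 9714 in A, against 8627 in MO2. Sequencing depth cannot be read from TPM and is unknown here. The titles of the samples carry numbers, and 3 of the 4 C titles have higher numbers than all A titles. The same holds for all 4 CGy titles against the AGy titles and for the 8 N and NGy titles against the A titles. The remaining C title, the lowest A title and the lowest AGy title have numbers far below those of all other titles. The sources do not say what the numbers stand for, the columns of the tables could not be tied to single titles, and the part of this order in the results was not tested.

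Pairs of untreated samples lay on average as far apart as pairs of an A and a C sample. Genes were tested if A or C averaged 1 TPM or more, which 9850 did, and the distance between samples is the root mean square of their differences in log2(TPM + 1) across these genes. Pairs of C samples lay 0.373 to 0.594 apart (mean 0.493, 3 pairs), pairs of A samples 0.313 to 0.434 (mean 0.399, 6 pairs), and pairs of an A and a C sample 0.412 to 0.609 (mean 0.475, 12 pairs). Within C, MO1 and MO3 lay 0.373 apart, and MO4 lay 0.511 from MO1 and 0.594 from MO3. MO4 lay 0.412 from the A sample MO9. The left-out MO2 lay 1.12 to 1.32 from the A and C samples used. On the first principal component of the 7 samples, which held 39.1% of the variance, MO4 of C at 22.2 lay beside MO9 of A at 22.5, while MO1 and MO3 lay at -16.9 and -32.1. The other 3 A samples lay between -3.91 and 10.8 on it. MO4 thus fell among the A samples on this component, and MO1 and MO3 lay apart from them. On the second component (20.2% of the variance) the groups did not overlap, with C at 9.44 to 21.1 and A at -19.9 to -1.33, and MO4 was the control farthest from A.

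Most genes differed little between A and C, and more genes rose than fell. The middle 50% of the 9850 genes had a difference (A minus C, in log2(TPM + 1)) between -0.10 and 0.18, and 5% of genes each lay below -0.37 and above 0.53, with a median of 0.03. After quantile normalization the median was -0.005. A difference of at least 1.5-fold was seen for 550 genes, 381 higher and 169 lower in A. For 859 genes all 4 A samples lay above all 3 C samples (8.72% of genes tested) and for 374 genes all lay below (3.8%), or 12.5% in both directions. Among the 3790 genes with a mean under 10 TPM, 319 lay above and 96 below, and among the 5157 genes of 10 to 100 TPM, 468 lay above and 217 below. Among the 903 genes over 100 TPM, 72 lay above and 61 below. With MO2 counted among the controls, 754 genes lay above and 84 below.

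In limma's moderated test of the uncorrected values, 2 of the 9850 genes (0.0203%) passed an adjusted p of at most 0.05 (Benjamini-Hochberg) together with a 1.5-fold change, 1 higher and 1 lower in A. An unadjusted p under 0.05 was reached by 1194 genes, 917 higher and 277 lower. With MO2 kept, 0 genes passed in limma and 784 genes had an unadjusted p under 0.05. Leaving out MO1 gave 4 genes and leaving out MO3 gave 6 genes.

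The differences of single genes stay the same when the spread of each gene is estimated from all 6 groups (23 samples), which gives the test more degrees of freedom. In that fit 69 genes were called (0.701% of 9850), 52 higher and 17 lower in A, and 1 of the 2 genes above was among them. The rises lay between 0.59 and 1.70 (median 0.80) and the falls between -1.71 and -0.60 (median -0.73) on the log2(TPM + 1) scale. Most of these genes were expressed at a low level, with a median of 5.89 TPM against 15.9 TPM over all genes tested, and 46 of the 69 had a mean under 10 TPM. All 69 had an unadjusted p under 0.05 in the fit of A and C alone. The count depended on single samples. It rose to 434 of 9866 genes without MO4, 269 higher and 165 lower, and to 173 of 9854 with MO2 kept, 166 of them higher. It fell to 10 genes without the A sample MO12, 11 without MO3, 18 without MO1 and 38 without MO9.

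In the batch-corrected table, which has the same group means and a smaller spread within groups, 240 of 9838 genes were called (2.44%), 194 higher (1.97%) and 46 lower in A, and 838 genes (8.52%) passed the adjusted p alone. The median SD of a gene in C was 0.20 before the correction and 0.09 after it, and in A it was 0.17 and 0.13. The test takes this smaller spread as given, so the count stands beside the uncorrected result and not in its place. The list held 60 of the 69 genes called with the spread of 6 groups, which is 87% of that list and 25% of the 240. Before the correction, 143 of the 240 genes had groups that did not overlap, beside 12.5% of all genes tested. The same A and C samples, with the same group means, chose these genes, so no more is read from these shares. With each C sample left out in turn, without renewing the correction, 40 genes (MO1), 9 genes (MO3) and 8 genes (MO4) were called, and without MO9, MO11 or MO12 of A 66, 137 and 104 genes.

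**Figure D1:**
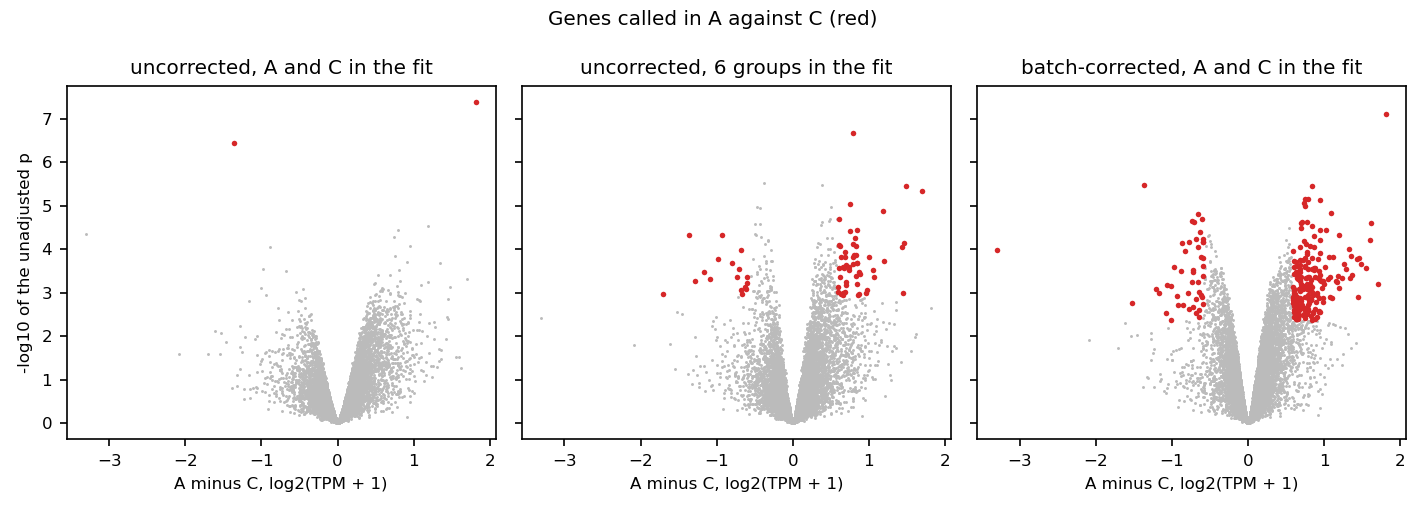
The horizontal axis gives the difference A minus C in log2(TPM + 1) and the vertical axis -log10 of limma's unadjusted p, for each gene tested (grey) and each gene called (red). From left to right, 2 genes were called with A and C in the fit, 69 with the spread of 6 groups and 240 in the batch-corrected values.

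Both genes called from A and C alone had low TPM and were listed at 0 in 1 of the groups, taken as under 0.001 TPM. ENSRNOG00000019584 was listed at 0 in MO1, MO3 and MO4 and had 2.63, 2.40, 2.65 and 2.44 TPM in MO9 to MO12 (adjusted p = 0.000409, limma). The left-out control MO2 had 2.65 TPM, so that sample lay with A and not with the other controls. The gene was at 5.59, 2.61, 2.69 and 4.71 TPM in the 4 N samples, which received no ascorbic acid, and at 0 to 6.01 TPM in NGy. Among irradiated samples the gene was also split within groups, with 2.45, 1.69 and 2.27 TPM in 3 CGy samples and 0 in the other one, and with 0, 0, 0.625 and 1.84 TPM in AGy. ENSRNOG00000003763 had 1.67, 1.44 and 1.59 TPM in the C samples and was listed at 0 in all 4 A samples (adjusted p = 0.00177, limma). It was also at 0 in MO2 and in 3 of the 4 CGy samples, while the AGy samples had 0, 1.40, 0.580 and 0.628 TPM, and the interaction test did not pass for it (adjusted p = 0.21, limma). The adjusted p with the spread of 6 groups was 0.0659 for the former and 0.0197 for the latter. With MO2 kept, the adjusted p was 0.585 for both.

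The next gene by p in each direction did not pass. ENSRNOG00000036678 was listed at 0 in all C samples and in MO2, and had 1.82, 1.07, 0.996 and 1.33 TPM in A (adjusted p = 0.0855, limma). It was at 0 in 2 CGy, 2 N, 1 NGy and 1 AGy sample as well, so presence and absence did not follow ascorbic acid outside this comparison. ENSRNOG00000000376 had 6.24, 12.02 and 17.4 TPM in C, 1.20 TPM in MO9 and 0 in the other 3 A samples (adjusted p = 0.0855, limma), and was at 0 in MO2. In AGy it ranged from 0 to 12.7 TPM and in CGy from 0 to 14.4 TPM. Of all genes tested, 4 were at 0 in the 3 C samples and above 0 in the 4 A samples, and 2 showed the opposite. MO2 was above 0 for 3 of the 4 and at 0 for both of the 2, so for 5 of these 6 genes it lay with A. It had more genes listed at 0 (4204) than MO1, MO3 and MO4 (3856 to 3986), and the part of this in its zeros was not tested.

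**Figure D2:**
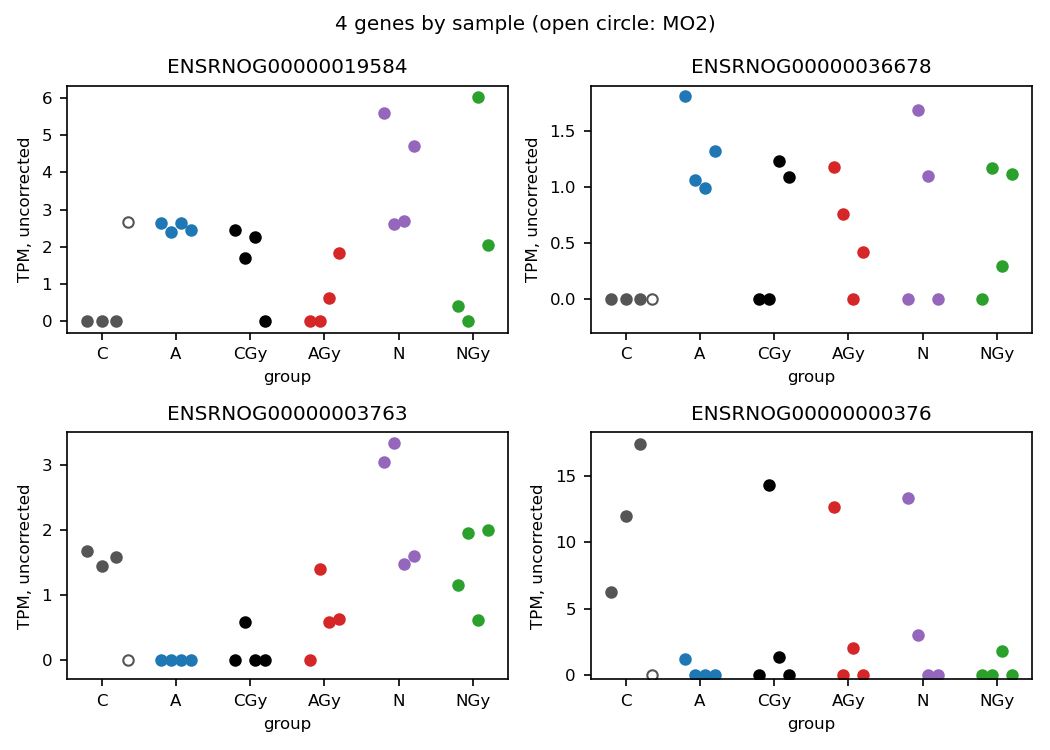
Each point is the uncorrected TPM of 1 sample, by group, with MO2 as an open circle. Without MO2, the groups A and C do not overlap for the 4 genes, with C at 0 for ENSRNOG00000019584 and ENSRNOG00000036678, A at 0 for ENSRNOG00000003763 and MO2 at 0 for 3 of the genes.

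Genes at higher levels showed smaller differences with clearer levels in every sample. Of the 5865 genes with at least 10 TPM in both groups, the 3 genes with the smallest p among those at least 1.5-fold higher in A and the 3 among those at least 1.5-fold lower are described here by rank. They were chosen after their values were seen, and no names can be given. The first gene had 119, 116 and 122 TPM in C and 217, 195, 197 and 222 TPM in A, a log2 difference of 0.79 (standard error 0.09). MO2, at 118 TPM, was like the other controls. The groups were wide apart for this gene, yet its adjusted p was 0.0855 in the fit of A and C alone and 0.00212 with the spread of 6 groups (limma). In the irradiated groups its AGy samples (139, 150.1, 133 and 171 TPM) overlapped its CGy samples (129, 121, 133 and 147 TPM), with a log2 difference of 0.16 (adjusted p = 0.316, limma). The difference between the effects in unirradiated and irradiated NSps did not pass for it (adjusted p = 0.545, limma).

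The second gene higher in A had 26.9, 23.3 and 24.1 TPM in C and 39.3, 46.6, 36.2 and 39.9 TPM in A, a log2 difference of 0.68 (standard error 0.11). It passed in AGy against CGy (log2 difference 1.01, adjusted p = 0.042, limma) and in A against C in the batch-corrected values (adjusted p = 0.0248, limma) but not in the uncorrected values (adjusted p = 0.245, and 0.143 with the spread of 6 groups, limma). The third had 34.1, 25.3 and 31.96 TPM in C and 49.5, 49.6, 54.1 and 63.7 TPM in A, a log2 difference of 0.81 (standard error 0.14), and was called with the spread of 6 groups (adjusted p = 0.02, limma). It passed in the batch-corrected values (adjusted p = 0.0262, limma) but not in the fit of A and C alone (adjusted p = 0.248, limma). In AGy against CGy it did not pass (log2 difference 0.36, adjusted p = 0.157, limma). All 3 genes had their lowest A sample above their highest C sample.

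The first gene lower in A had 26.2, 33.8 and 19.6 TPM in C and 13.7, 7.99, 13.9 and 9.59 TPM in A, a log2 difference of -1.17 (standard error 0.24, adjusted p = 0.0321 with the spread of 6 groups, limma). The second had 31.1, 26.9 and 26.7 TPM in C and 10.9, 22.2, 13.7 and 18.1 TPM in A, a log2 difference of -0.80 (standard error 0.22, adjusted p = 0.0284 with the spread of 6 groups, limma). The third had 26.8, 27.9 and 16.2 TPM in C and 11.7, 12.6, 15.4 and 15.5 TPM in A, a log2 difference of -0.71 (standard error 0.21, adjusted p = 0.0303 with the spread of 6 groups, limma). The groups did not overlap, but MO4 was the lowest of the 3 C samples for each gene and lay close to A for the third. MO2 had 1.78, 2.34 and 11.0 TPM of these genes, in that order, below all A samples. In the fit of A and C alone these genes did not pass (adjusted p = 0.248, 0.264 and 0.264 in the same order, limma). In the batch-corrected values their adjusted p was 0.0304, 0.0614 and 0.0145 in the same order (limma), of which 0.0614 did not pass. Between AGy and CGy the third gene differed by -0.55 on the log2 scale (adjusted p = 0.0224, limma), the first by -0.75 (adjusted p = 0.0835, limma) and the second by -0.01 (adjusted p = 0.947, limma).

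**Figure D3:**
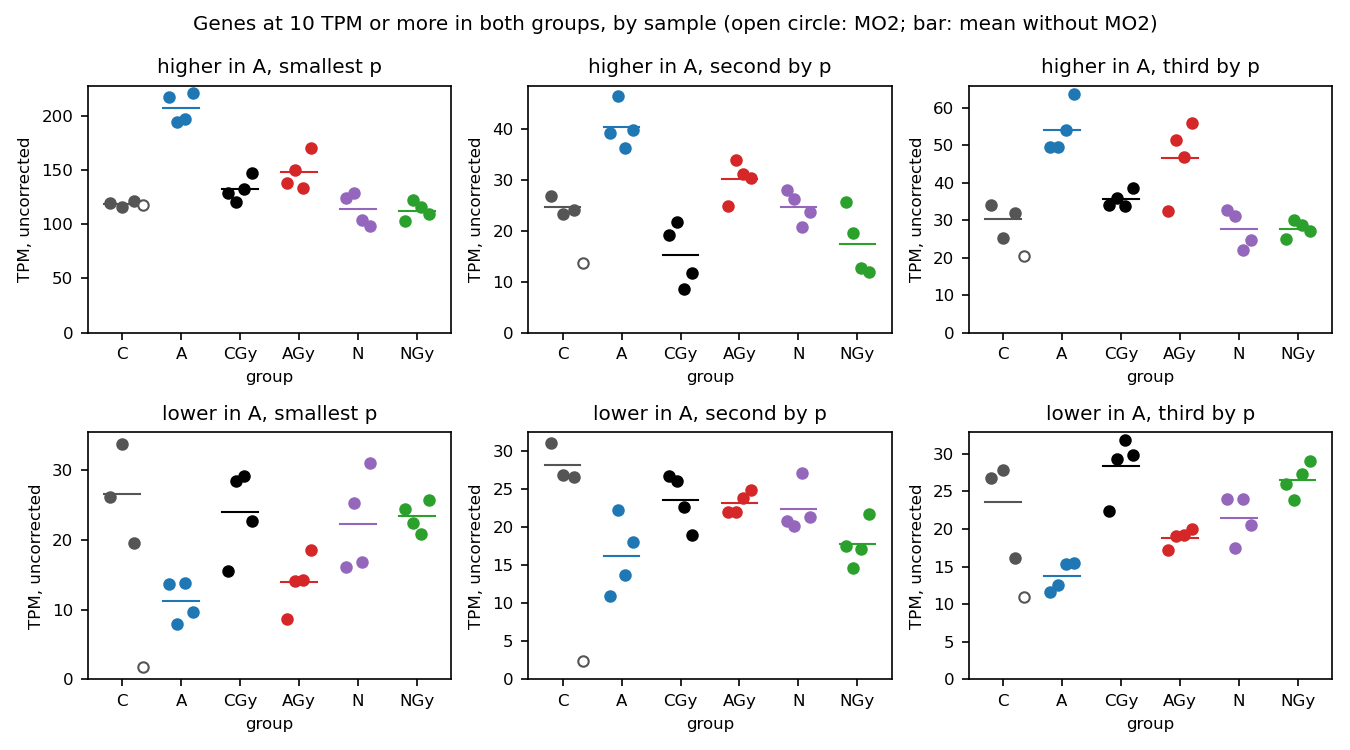
Uncorrected TPM of each sample by group for the 3 genes higher (top) and the 3 genes lower in A (bottom) with the smallest p among genes at 10 TPM or more in both groups. Bars are means without MO2, which is an open circle. The first gene is at 195 to 222 TPM in A and at 116 to 122 TPM in C.

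Ascorbic acid was also compared in AGy and CGy, in which all NSps received 1 Gy. Genes called there were followed in A and C, whose samples had no part in the choice. In the uncorrected values, 632 of 9847 genes differed between AGy and CGy (6.42%), 334 higher (3.39%) and 298 lower (3.03%) in AGy. The count was 268 without MO16, 301 without MO15 and 411 without MO21. Of the 326 higher genes that were also tested in A against C, 315 had a higher mean in A than in C (96.6%), against 57% of all 9659 genes tested in both comparisons. Their median difference A minus C was 0.56 on the log2(TPM + 1) scale, against 0.03 for all genes, and for 98 of them all A samples lay above all C samples (30.1%, against 8.72% of genes tested). Of the 287 lower genes, 274 had a lower mean in A (95.5%, against 43% of all genes), with a median of -0.31. Only 4 of the 287 had all A samples below all C samples (1.39%, against 3.8%). Across the 9659 genes, the differences with and without 1 Gy had a Pearson correlation of 0.553 (Spearman 0.488). This is a description over genes, which are not independent and share libraries. Both comparisons carry the split in title numbers given above, and its part in their likeness was not tested.

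**Figure D4:**
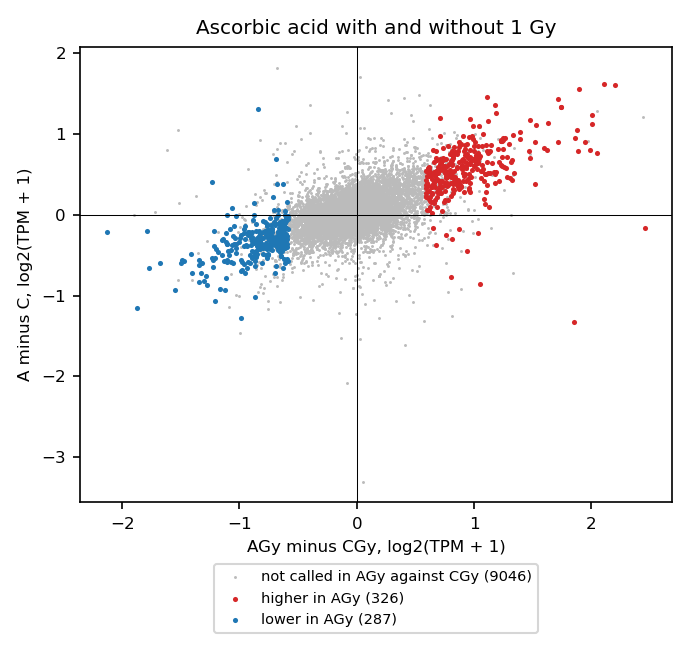
Each point is a gene tested in both comparisons, with AGy minus CGy on the horizontal and A minus C on the vertical axis, both in log2(TPM + 1). Of the 326 genes called higher in AGy (red), 315 lie above 0 on the vertical axis, and of the 287 called lower (blue), 274 lie below it.

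MO4 differed from MO1 and MO3 in these lists in the direction of the A samples. The mean log2(TPM + 1) of the 326 genes, set to 0 at the mean of the 3 C samples, was -0.06 in MO1, -0.39 in MO3 and 0.45 in MO4, and 0.81, 0.48, 0.47 and 0.51 in MO9 to MO12. All A samples lay above all C samples, though MO4 was within 0.02 of the lowest. The 8 samples of N and NGy, which had no part in the choice of genes, lay between -0.71 and -0.08. MO2 lay at -0.80. For the 287 genes lower in AGy, C samples were at 0.19 (MO1), 0.47 (MO3) and -0.66 (MO4), and A samples at -0.64, -0.44, -0.16 and -0.07, so that MO4 was lower than every A sample. The difference of MO4 from the mean of MO1 and MO3 was 0.68 for the 326 genes and -0.98 for the 287 genes, while the mean of A differed from these 2 controls by 0.80 and -0.65. Without MO4 the median differences A minus C were 0.77 and -0.63, and without MO3 they were 0.36 and -0.09. Among the AGy samples, which took part in choosing these genes, MO21 was at 0.63 for the 326 genes and -0.60 for the 287 genes. The other AGy samples lay at 0.32 to 0.46 and at -0.25 to -0.11. Whether MO4, MO9 and MO21 carry the low title numbers given above was not tested, because columns could not be tied to titles.

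**Figure D5:**
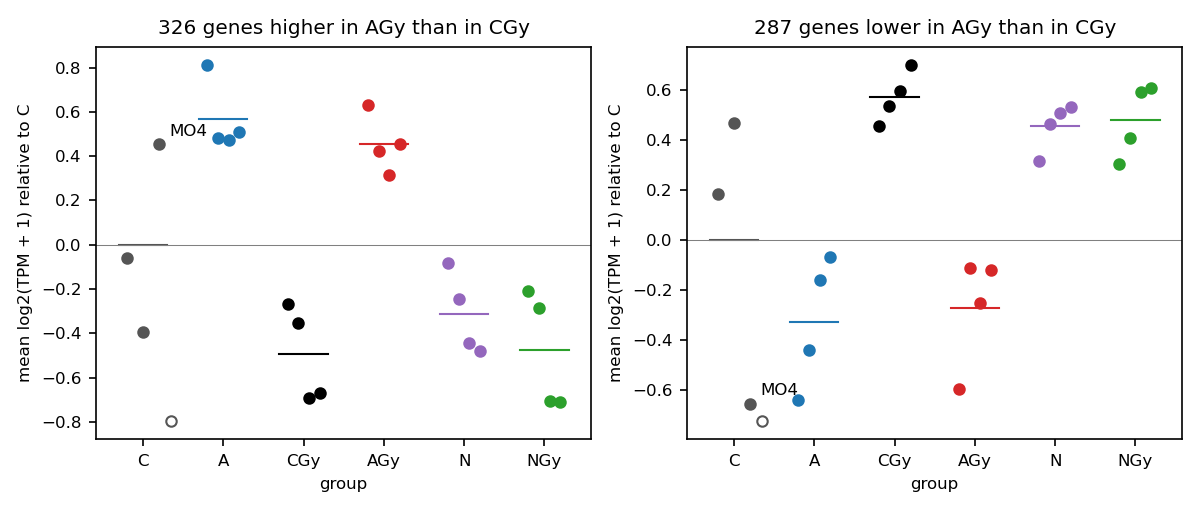
Mean log2(TPM + 1) per sample, relative to the mean of MO1, MO3 and MO4, of the genes higher (left, 326) and lower (right, 287) in AGy than in CGy. Points are samples, bars means without MO2, and the open circle is MO2. MO4 lies at 0.45 and -0.66, near the A samples, while the other 2 of the 3 controls used lie on the side of N, NGy and CGy.

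Followed in the other direction, 49 of the 52 genes called higher in A with the spread of 6 groups were tested in AGy against CGy. A higher mean in AGy was found for 47 of them, against 4596 of all 9659 genes tested in both comparisons. Of the 49, 26 were called higher in AGy (against 3.39% of all genes) and none lower. Of the 17 genes called lower in A, 15 were tested. A lower mean in AGy was found for 14 of them, against 5063 of the 9659 genes, and 4 were called lower (against 3.03% of all genes). The AGy and CGy samples were part of the spread with which these genes were called in A, and the part of this in the counts was not tested. The group means, and so the directions, do not depend on it. For the lists from the fit without MO4 (434 of 9866 genes), 250 of 255 higher genes and 156 of 159 lower genes kept their sign in AGy against CGy. That fit leaves out the control that lay near A in the lists above, and the part of this in the counts was not tested.

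Whether the effect of ascorbic acid differed with radiation was tested as the difference between A minus C and AGy minus CGy. With 10038 genes tested, 1 gene passed an adjusted p of at most 0.05 (0.00996%, limma interaction) and 754 genes had an unadjusted p under 0.05. The root mean square difference over all genes tested was 0.290 for A minus C and 0.373 for AGy minus CGy on the log2(TPM + 1) scale. These values also hold the spread between samples and are not sizes of an effect alone. The numbers of genes called, 2 and 632, do not by themselves show that the effects differ. Few calls in the interaction test do not show that they are alike. In the batch-corrected values 1126 of 10024 genes (11.2%) passed the interaction test. Among the 69 genes called in A against C with the spread of 6 groups, 15 had an unadjusted interaction p under 0.05 (21.7%, against 7.51% of all genes). Since A and C chose these genes, no more is read from this share.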

How the data were processed

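PolyA RNA of 24 samples was sequenced (85 bases, single end per the library methods). The authors generated TPM with kallisto and deposited them per gene for all samples. The labels also name STAR 2.6.1. The second deposited table, corrected with NOISeq, holds 0.5 times (corrected TPM + 1) and lacks MO2. Values were doubled, 1 was subtracted, and corrected TPM below 0 (6.51% of the A and C values) was set to 0. Group means of log2(TPM + 1) of both tables before that step differed by at most 3.8e-09. Column groups follow the sample identifiers of the study. No per-sample column was left out other than MO2.

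log2(TPM + 1), a scale that understates the change of low genes, was tested with limma 3.58.1 in R 4.3.3 (lmFit, eBayes) where A or C averaged 1 TPM or more. Genes were called at an adjusted p of at most 0.05 (Benjamini-Hochberg) and 1.5-fold, and in the interaction at the adjusted p alone. Figures used matplotlib 3.10.9. Tests were checked on simulated data. The identifiers named were, in each direction, genes called without overlap between groups, then those with the smallest p, at least 1.5-fold and without overlap, up to 2. The 14 gene lists and the marker lists drawn up were not used, since 0 of 16478 identifiers matched a symbol (GRCr8). Comparison, lists and rules were chosen with earlier results of these data known. Alternatives were MO2 kept, the corrected table, a pseudocount of 0.1, no filter, quantile normalization, TPM rescaled to the same total, a variance trend, 6 groups in the fit, no fold threshold and each sample left out. Those for the fit of 6 groups were added after seeing the data. Without read counts, precision rests on the spread between samples.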

Additional observations from a re-analysis of the deposited data

Results flagged for a closer look

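Of 30 sets of 4 samples in A and C (with MO2) that were examined, 6 had a sample far from the other 3. The rule used flags about 1 set in 20 by chance. MO2 was that sample 4 times: it had 8627 genes of at least 1 TPM, 2.65 TPM of ENSRNOG00000019584, 0 TPM of ENSRNOG00000003763 and 2.34 TPM of the second gene lower in A at 10 TPM or more. In A, MO9 stood apart 2 times, with 1.20 TPM of ENSRNOG00000000376 and a mean of 0.81 over the 326 genes higher in AGy than in CGy. The single genes examined were chosen by their p in A, MO1, MO3 and MO4, which favours genes with like values within each group. A differing MO2 is then easily flagged, so no more is read from its flags for these genes. MO2 had no part in the main comparison, and its 2.65 TPM of ENSRNOG00000019584 lay at the level of the A samples while the controls used were at 0.

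The interaction test called 1 gene, whose difference A minus C was 1.58 lower on the log2 scale than its difference AGy minus CGy (-1.58, standard error 0.20, adjusted p = 0.0276, limma). It had 3.08, 4.39 and 2.52 TPM in C and 1.07, 1.58, 1.70 and 1.67 TPM in A, and 2.12, 2.85, 2.17 and 2.04 TPM in CGy and 4.99, 5.53, 4.01 and 4.43 TPM in AGy. Every A sample lay below every C sample used and every AGy sample above every CGy sample, at a low level throughout. MO2, the control left out, had 6.38 TPM. In samples with Noggin and no ascorbic acid, the gene had 4.29, 1.13, 3.15 and 0.861 TPM (N) and 1.53, 4.04, 3.15 and 4.69 TPM (NGy). The gene was thus as low as in A in some N samples and as high as in AGy in some NGy samples. It is 1 of 10038 genes tested, and no gene passed without the filter on low values or in 10 of the 15 fits that left out 1 sample (524 to 1079 genes at an unadjusted p under 0.05).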

How the results depend on the processing

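The count of 2 genes in A against C was 0 with MO2 kept (784 genes at an unadjusted p under 0.05), 5 with a pseudocount of 0.1, 69 with the spread of 6 groups and 240 in the corrected table. It was 2 to 6 with a sample left out. A variance trend also gave 2 genes, of which 1 was shared. The corrected count of 240 was 157 without a filter, 838 without the fold threshold and 8 to 339 with a sample left out. The count of 69 was 173 with MO2 and 10 to 434 with a sample left out. AGy against CGy had 268 to 636 genes (268 without MO16, 301 without MO15, 411 without MO21). The interaction had 3 genes with a pseudocount of 0.1, 0 without a filter (1079 at an unadjusted p under 0.05), 1126 in the corrected table, and 0 to 2 with a sample left out. It had 0 without any of MO1, MO9 to MO12, MO13, MO15, MO16, MO22 and MO24 (524 to 976 at an unadjusted p under 0.05). Medians A minus C of the higher and lower AGy lists were 0.36 to 0.77 and -0.63 to -0.09 with a sample left out. With MO2 kept they were 0.78 and -0.15. MO2 moved the median of all genes from 0.03 to 0.20, and quantile normalization moved it to -0.005. The cause of these changes was not tested. No paired analysis was made, because the sources do not say what the title numbers stand for and the table columns could not be tied to single titles.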
